A study of Mus musculus with 2 samples.

Results

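Piezo1, Piezo2, Tmem63a, Tmem63b, Tmem63c and Tmem150c encode membrane proteins that open, or help channels to open, when a membrane is stretched or pressed. They were taken by symbol from the gene lists of both count tables and make up 6 genes of 39098 symbols. The 6 genes were followed through 20 classes of cells of the mouse trigeminal ganglion (TG), the ganglion that carries touch, temperature and pain from the face. A class was set only by the raw counts of other marker genes in each cell, and none of the 6 genes was used for it.

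Right-side TGs were taken from male C57BL/6 mice aged 5 to 8 weeks. The vibrissal pad on that side had received 20 μL by injection 7 days earlier. The experimental group had received complete Freund's adjuvant (CFA), an emulsion that causes a lasting local inflammation, mixed with an equal volume of saline. The control is called untreated in the sample labels and saline-injected in the study's methods. One BD Rhapsody library, in which RNA is captured by its poly(A) tail and counted by unique molecular identifiers (UMIs), was deposited for each condition, and the number of mice pooled in a library is not given in the sources used here. The difference between the conditions therefore has no replicate check, and every interval below covers counting error at 95% and not the variation between animals. The tables hold 7298 control cells with 48916096 UMIs and 4080 CFA cells with 22096268 UMIs, and 27 cell barcodes occur in both. The filter, which asked for 150 detected genes and allowed 25% mitochondrial counts, kept 6695 control and 3661 CFA cells, of which 789 and 411 were neurons. A class was given to 970 of the 1200 neurons and to 7770 other cells, while 230 neurons and 1386 other cells had no class. Levels are counts per 1000000 UMIs of the class (CPM), so they compare a gene between classes and not one gene with another.

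PIEZO1 and PIEZO2 form large trimeric cation channels that open directly under membrane tension. PIEZO2 is the main transducer of light touch and of the sense of body position in sensory neurons, while PIEZO1 is best known from cells exposed to flow and pressure, such as endothelium, red blood cells and immune cells. The TMEM63 proteins are the mammalian relatives of the plant OSCA channels, which respond to osmotic and mechanical stretch. TMEM150C, also called tentonin 3, was described with slowly adapting mechanically activated currents, and whether it is a channel or a modulator of others is debated.

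In GRCm38, the build named in the submitters' processing notes, GENCODE M21 places Piezo1 on chr8:122481698-122551329 and Tmem150c on chr5:100077872-100159808, both on the minus strand. Tmem63a lies on chr1:180942344-180975112 and Tmem63c on chr12:87021340-87090043, both on the plus strand, and Tmem63b on chr17:45660171-45686905 on the minus strand. Each of these genes overlaps at least 1 annotated gene on the opposite strand, such as Ctu2 for Piezo1 and Mrpl14 for Tmem63b. On the same strand, Gm26497 overlaps Piezo1, and Gm25847 and Gm15745 overlap Tmem63c. How the counting used strand is not stated, so reads of opposite-strand partners may not be kept apart. Strand does not separate reads of same-strand partners.

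The 3 TMEM63 genes differed in the cells in which they were measured, as described below, although the same 3 neuron classes led for Tmem63a and Tmem63c. The start regions of these paralogs are shown because of the differences. Each line gives 250 bases before and 50 bases after the annotated transcription start (RefSeq, GRCm38.p6), 5′ to 3′ on the strand of the gene, with every CG dinucleotide in capitals. The windows are chr1:180942268-180942567 on the plus strand for Tmem63a, chr17:45686169-45686468 on the minus strand for Tmem63b, and chr12:87021090-87021389 on the plus strand for the first of the 2 starts listed for Tmem63c.
Tmem63a: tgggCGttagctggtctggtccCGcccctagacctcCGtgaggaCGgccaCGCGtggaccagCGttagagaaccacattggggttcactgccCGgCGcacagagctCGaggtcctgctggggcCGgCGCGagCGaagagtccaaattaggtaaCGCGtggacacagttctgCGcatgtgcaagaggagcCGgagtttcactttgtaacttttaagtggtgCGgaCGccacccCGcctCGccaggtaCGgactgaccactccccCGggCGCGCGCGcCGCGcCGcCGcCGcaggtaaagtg
Tmem63b: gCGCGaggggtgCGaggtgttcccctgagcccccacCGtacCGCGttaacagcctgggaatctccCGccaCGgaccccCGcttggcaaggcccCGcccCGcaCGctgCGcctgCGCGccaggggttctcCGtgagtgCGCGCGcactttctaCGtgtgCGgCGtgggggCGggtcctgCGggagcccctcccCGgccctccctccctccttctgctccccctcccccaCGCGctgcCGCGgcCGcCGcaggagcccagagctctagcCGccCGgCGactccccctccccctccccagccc
Tmem63c: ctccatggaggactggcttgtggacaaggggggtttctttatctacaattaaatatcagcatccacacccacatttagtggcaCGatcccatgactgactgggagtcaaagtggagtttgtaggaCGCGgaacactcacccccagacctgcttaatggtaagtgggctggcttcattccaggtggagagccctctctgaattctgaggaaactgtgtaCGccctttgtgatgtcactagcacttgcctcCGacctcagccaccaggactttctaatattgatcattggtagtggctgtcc
The Tmem63a window held 33 CG pairs and the Tmem63b window 34, and 91.4% and 92.3% of the 32851 windows in the table held fewer. The Tmem63c window held 5 pairs, below the median of 7 over all windows, and the window of its second start held 9. These are counts of letters, and what they do for the expression of the genes was not tested.

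Piezo2 differed widely between the neuron classes. Its level was highest in C-LTMR neurons, the unmyelinated low-threshold mechanoreceptors that answer to gentle stroking, which were gated on P2ry1 and Tafa4. There it stood at 709.5 CPM (interval 682.8 to 737.0, 2657 UMIs in 63 cells) in control and at 959 CPM (918 to 1001, 2080 UMIs in 41 cells) in the CFA library. Every one of these cells held Piezo2, with 13 to 101 UMIs per control cell and 9 to 135 UMIs per CFA cell. Th, Slc17a8 and Pou4f2, which were not used by the gate, were found at 189, 107 and 109 CPM in the control cells of this class, whereas Mrgprd was at 2.14 CPM. Th stood at 371.5 CPM in the CFA cells of the class. It did not set the class apart in the control, where Trpm8 neurons had 167 CPM, against 14.1 CPM in CFA Trpm8 neurons. Slc17a8 and Pou4f2 were at 13.5 and 4.80 CPM in control Trpm8 neurons.

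Nefh-high A-fibre neurons and Mrgprd neurons came next. The A-fibre class, gated on the heavy neurofilament gene of large myelinated neurons with little Calca, had 231 CPM (222 UMIs in 21 cells) and 367 CPM (149 UMIs in 10 cells). The Mrgprd class, the nonpeptidergic nociceptors of the epidermis, had 230.5 CPM (2494 UMIs in 146 cells) and 292 CPM (1100 UMIs in 57 cells). In the control these neighbours could not be told apart, with a log2 ratio of 0.0023 (-0.20 to 0.20), and in the CFA library the A-fibre class was above the Mrgprd class by 0.33 (0.074 to 0.58). In that library, 5 of the 10 A-fibre cells carried 143 of the 149 UMIs of their class, a spread between cells that the interval does not cover. C-LTMR neurons were above the A-fibre class by 1.62 (1.42 to 1.82) and 1.39 (1.15 to 1.64). Nefh did not set the A-fibre class apart, at 1263 and 1377 CPM against 1495 and 1589 CPM in Trpm8 neurons. Pvalb was at 24.96 and 4.927 CPM, against 214.2 and 192.4 CPM in Trpm8 neurons. Ntrk3 went the other way, at 267.3 and 123.2 CPM against 43.71 and 42.24 CPM, and so did Ntrk2. Tac1 was at 1534 and 901.7 CPM in the A-fibre class, and P2ry1 of the C-LTMR gate at 108.2 and 78.83 CPM. Which types of neuron this class holds was not tested.

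Lower levels followed in classes of peptidergic and itch neurons. Nefh-positive peptidergic neurons, which hold Calca together with neurofilament, had 115 CPM in the control (21 cells) and 226 CPM in the CFA library (8 cells). Mrgpra3 neurons, a class of itch receptors, had 62.6 and 55.2 CPM, and Sst/Nppb neurons, a second class of itch receptors, had 41.5 and 51.1 CPM. Sstr2-negative peptidergic C neurons had 47.2 and 88.2 CPM. The log2 ratio of Sstr2-negative over Sst/Nppb neurons was 0.18 (-0.39 to 0.82) in the control. That of Mrgpra3 over Sst/Nppb neurons was 0.11 (-0.59 to 0.84) in the CFA library. Only neighbours in the order of a library were compared in this way.

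At the bottom of the order were Sstr2-positive peptidergic C neurons and Trpm8 neurons, the cold receptors. Sstr2-positive neurons had 9.69 CPM (48 UMIs in 127 cells) and 14.0 CPM (35 UMIs in 71 cells). Trpm8 neurons had 4.80 CPM (10 UMIs in 38 cells) and 2.35 CPM (2 UMIs in 19 cells), and no Piezo2 UMI was found in 32 control and 17 CFA cells. In the control, the median neuron held 56654 UMIs in the C-LTMR class and 51104 UMIs in the Trpm8 class. The shallowest classes were Sstr2-positive (35103 UMIs), Sstr2-negative (37965 UMIs) and Sst/Nppb neurons (44754 UMIs), all low in the order. A-fibre neurons, near its top, had 48092 UMIs, and the deepest class was Mrgpra3 neurons with 78446 UMIs. The part of depth in this order was not tested. When each neuron was thinned to 5000 UMIs, which left out none of these cells, 96.8% (89.0 to 99.6%) of control and 97.6% of CFA C-LTMR neurons kept a Piezo2 UMI, against 100% of both before thinning. The same share was 63.0% and 75.4% in Mrgprd neurons and 2.63% and 0% in Trpm8 neurons, where 0 of 19 cells allows a share of up to 17.6%.

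**Figure D1:**
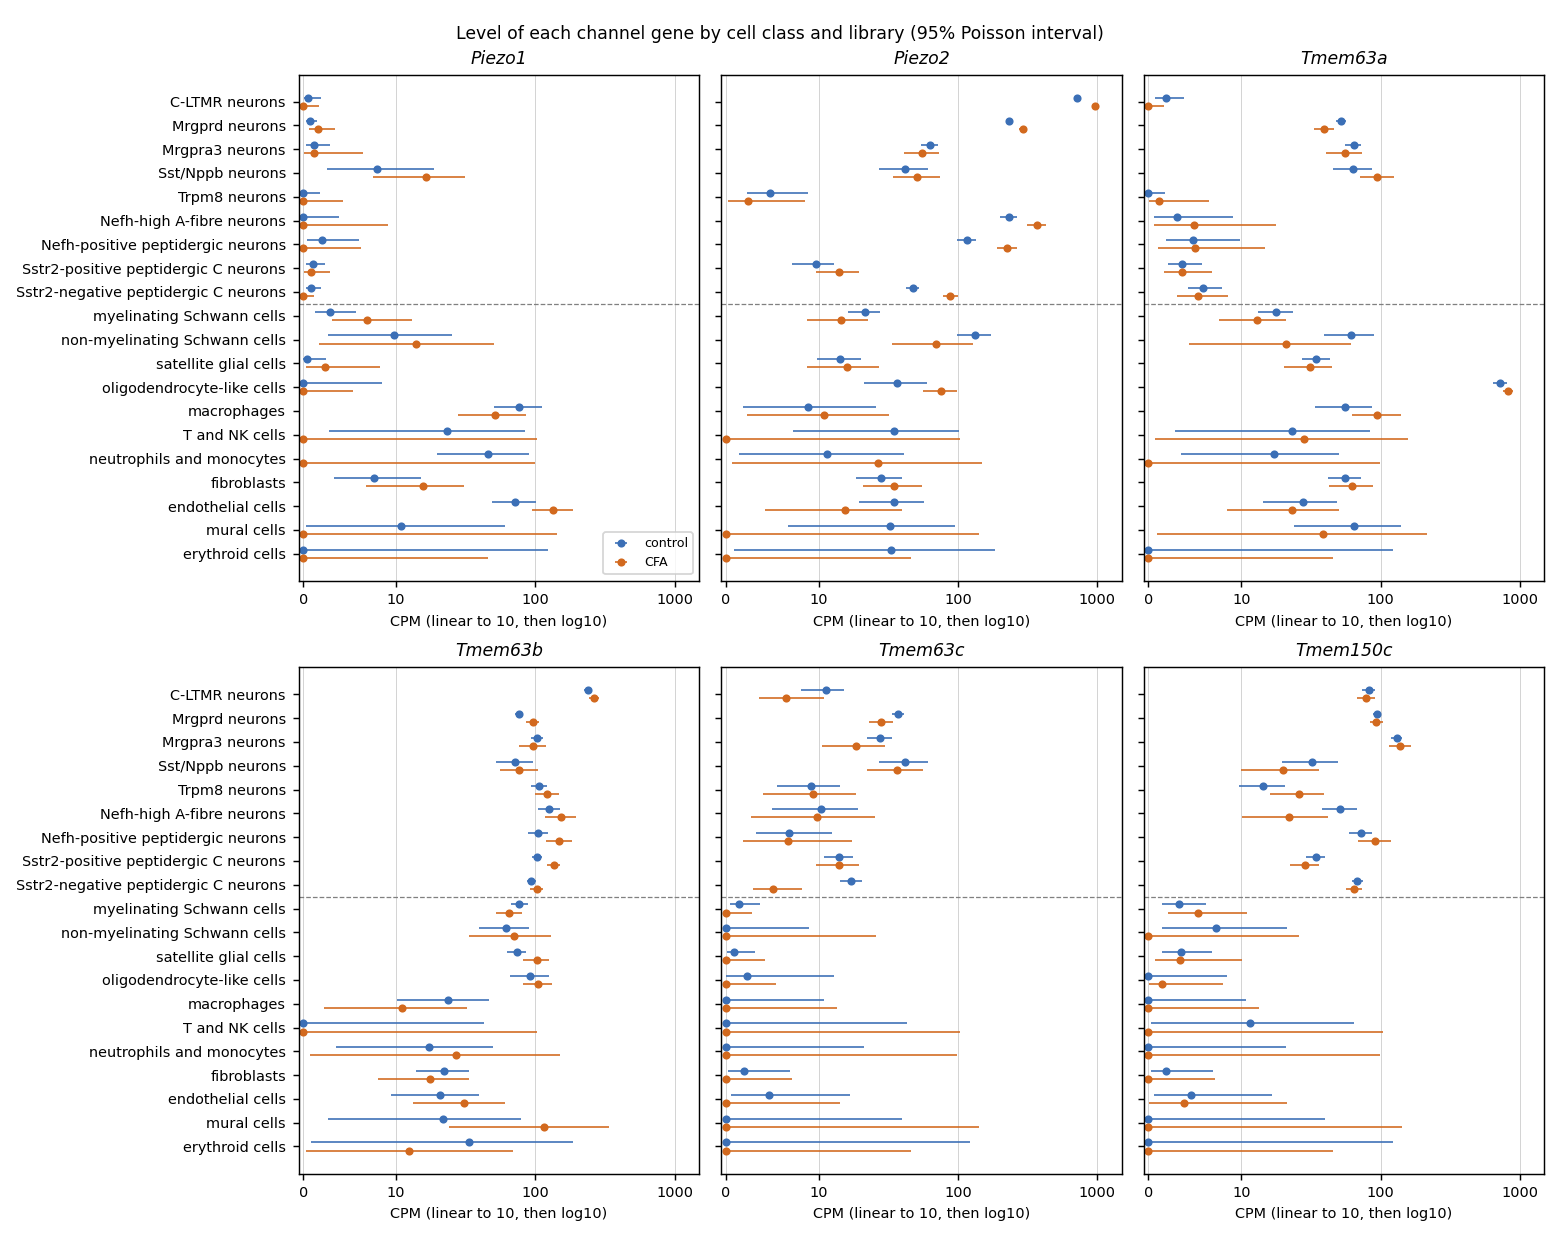
Level of each of the 6 genes in CPM (horizontal axis, linear to 10 and log10 above) in 20 classes of cells, neurons above the dashed line, with control points in blue, CFA points in orange and 95% Poisson intervals as bars. Piezo2 peaks in C-LTMR neurons, Tmem63a in oligodendrocyte-like cells at 722 and 827 CPM, and Tmem63c and Tmem150c are near 0 below the line.

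Within classes, the cells were not alike. In C-LTMR neurons the lower and upper quartiles of the control cells were 520.3 and 822 CPM of Piezo2, and in Mrgprd neurons 153 and 269 CPM. In Sstr2-negative peptidergic C neurons the median cell had no UMI in either library, and a small number of cells carried a large part of the counts. There, 8 of 176 control cells and 10 of 89 CFA cells held at least 10 Piezo2 UMIs, and these cells carried 146 of 329 and 184 of 280 UMIs. The A-fibre class was also mixed, with 0 to 38 UMIs per control cell and 0 to 49 UMIs per CFA cell, and 3 of 21 and 4 of 10 cells had none.

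**Figure D2:**
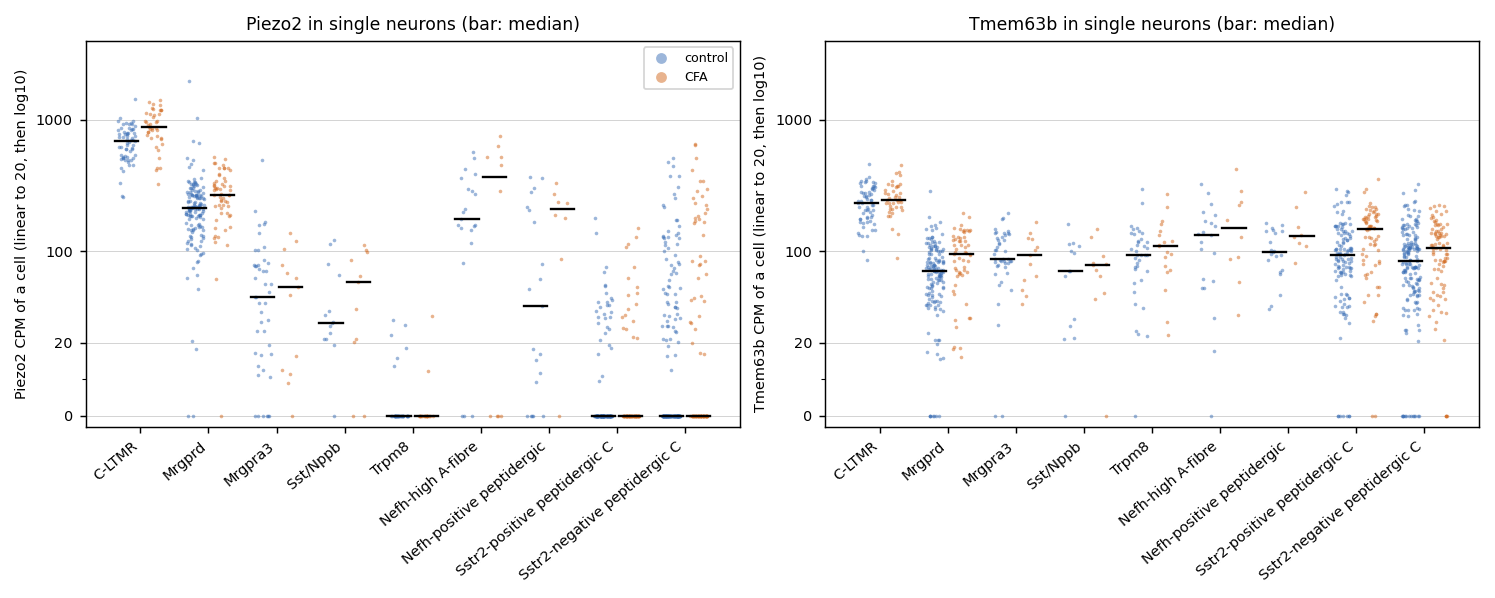
Piezo2 (left) and Tmem63b (right) in single neurons of the 9 neuron classes, in CPM of the cell (vertical axis, linear to 20 and log10 above), each point a cell and each black bar the median of a library. The Piezo2 medians fall from 690 and 882 CPM in C-LTMR neurons to 0 in Trpm8 and both peptidergic C classes, whereas the Tmem63b cloud is at a similar height in every class except C-LTMR neurons, where it is higher.

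Of the Piezo2 UMIs found in any class, C-LTMR neurons held 41.5% in control and 52.3% in the CFA library. They made up 0.941% and 1.12% of the kept cells, but their median depth was 56654 and 50718 UMIs. Over all kept cells the median was 1448 and 1192 UMIs. Of all kept UMIs, the class held 3745027 of 48233077 in control and 2169731 of 21658155 in the CFA library. Piezo2 lies on chr18:63010213-63387183 on the minus strand, and AC132378.1 and AC124391.1 overlap it. Mrgprd neurons held 39.0% and 27.7%. These shares follow from the number of cells of each class in a library and from their depth, as well as from the level per cell.

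Outside neurons, Piezo2 was found at 132 CPM (54 UMIs) in control and 69.9 CPM (10 UMIs) in CFA non-myelinating Schwann cells, the glia that wrap unmyelinated axons. Oligodendrocyte-like cells had 36.8 CPM (16 UMIs) and 75.4 CPM (52 UMIs). Fibroblasts, myelinating Schwann cells and satellite glial cells, which surround the neuronal cell bodies, lay between 14.3 and 35.0 CPM in both libraries. One control cell carried 18 of the 54 UMIs of the non-myelinating class. The gate of that class asked for 3 marker UMIs, with Scn7a among them. Scn7a stood at 4709 and 6307 CPM in the class, but also at 656 and 847 CPM in C-LTMR neurons, where Piezo2 was highest. The Piezo2 UMIs of each class were also divided by those of 10 pan-neuronal genes, a ratio compared between classes only. For each 100 UMIs of those genes, neurons held 1.17 Piezo2 UMIs in control and 1.69 in the CFA library, while non-myelinating Schwann cells held 12.6 and 11.8 and oligodendrocyte-like cells 3.17 and 6.79. C-LTMR neurons held 4.75 and 6.44, and fibroblasts held 4.83 in control and 14.6 in CFA cells, the latter above the non-myelinating class. The barcodes removed by the filter held 11.9 and 11.25 by the same measure. The part of captured neuronal RNA in these values was not tested.

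**Figure D3:**
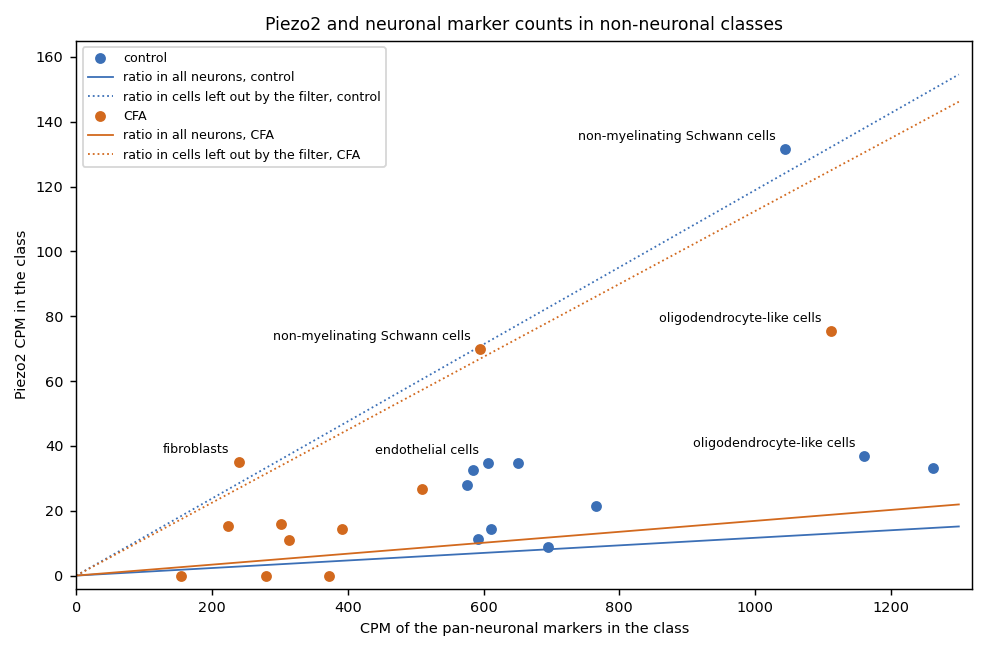
Piezo2 CPM (vertical axis) against the summed CPM of the pan-neuronal marker genes (horizontal axis) in 11 non-neuronal classes, control in blue and CFA in orange, with lines for the ratio in all neurons (solid) and in cells removed by the filter (dotted). Non-myelinating Schwann cells at 132 and 69.9 CPM sit by the dotted lines, CFA fibroblasts at 35.0 CPM lie above theirs, and most other points lie between the dotted and the solid lines.

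Piezo1 was scarce, with 122 UMIs in the classes of the control and 88 in those of the CFA library, and it was found mainly outside neurons. Endothelial cells, in which PIEZO1 is known to sense blood flow, had 71.6 CPM (48.6 to 102, 31 UMIs in 256 cells) in control and 135 CPM (93.7 to 187, 35 UMIs in 149 cells) in the CFA library. Macrophages had 76.6 CPM (50 to 112, 26 UMIs) and 51.1 CPM (28.0 to 85.8, 14 UMIs). The 2 classes were alike in the control within counting error, with a log2 ratio of macrophages over endothelial cells of 0.097 (-0.71 to 0.90), and endothelial cells were above macrophages by 1.40 (0.46 to 2.40) in the CFA library. Neutrophils and monocytes had 8 UMIs in control and none in the CFA library, where 0 counts allow up to 80.3 CPM. Erythroid cells held none in either library, which allows up to 99.6 CPM in the 25 control and 37.3 CPM in the 60 CFA cells.

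Fibroblasts had less Piezo1 than endothelial cells and macrophages, at 7.67 CPM (3.31 to 15.1, 8 UMIs in 545 cells) and 15.6 CPM (6.71 to 30.6, 8 UMIs in 337 cells). In the CFA library macrophages were above them by 1.72 (0.36 to 3.18) on the log2 scale. Of these fibroblast UMIs, 1 in each library lay in the 19 control and 12 CFA fibroblasts with at least 2 UMIs of perineurial markers. For mural cells, the muscle-like cells of the vessel wall, the counts were too low for an order, with 1 UMI in 63 control cells and none in 20 CFA cells, which allows up to 115 CPM. When cells were thinned to 500 UMIs, 4.30% (2.16 to 7.56%) of control and 9.40% (5.23 to 15.3%) of CFA endothelial cells kept a Piezo1 UMI, against 10.9% and 20.1% before thinning, and none of these cells was left out as too shallow. In satellite glial cells, taken as a class that should hold little Piezo1, the thinned share was 0% of 1051 and 0.230% of 434 cells. The median depth was 1340 and 1555 UMIs in endothelial cells and 2030 and 1808 UMIs in satellite glial cells.

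In neurons Piezo1 stayed between 0 and 2.05 CPM in all classes but one. Sst/Nppb neurons had 7.99 CPM (5 UMIs in 14 cells) and 16.4 CPM (9 UMIs in 11 cells). In the CFA library they were above the next class, Mrgprd neurons, by 3.37 on the log2 scale (1.71 to 5.14). In the control the next class was Nefh-positive peptidergic neurons (3 UMIs), and the step of 1.97 (-0.40 to 4.65) did not set the 2 classes apart. The control interval of Sst/Nppb neurons, 2.59 to 18.6 CPM, lay above that of Mrgprd neurons, 0.319 to 1.46 CPM. C-LTMR neurons, where Piezo2 was highest, held 2 and 0 Piezo1 UMIs.

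Tmem63a was highest in oligodendrocyte-like cells, a class with the oligodendrocyte genes Mog, Mobp and Opalin. In humans, changes in TMEM63A are known from a disorder of early myelination. The level was 722 CPM (644 to 806, 314 UMIs in 69 cells) in control and 827 CPM (760.5 to 898, 570 UMIs in 106 cells) in the CFA library. The next level was 94.96 CPM, in CFA macrophages. Of these cells, 84.1% and 85.85% held a UMI, and after thinning to 500 UMIs, which left out 3 and 1 cells, 27.3% (17.0 to 39.6%) and 27.6% (19.3 to 37.2%) did. Myelinating Schwann cells, which make the myelin of the peripheral part of the nerve, had 17.8 and 13.0 CPM and a thinned share of 0.753% and 0.533%. They were sequenced less deeply, with a median of 1081 and 883 UMIs against 6193 and 6265 UMIs in oligodendrocyte-like cells.

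In neurons Tmem63a divided the classes into a group with and a group almost without it. Mrgpra3 neurons had 64.0 and 55.2 CPM, Sst/Nppb neurons 63.9 and 94.9 CPM, and Mrgprd neurons 52.0 and 39.3 CPM. The other 6 neuron classes lay between 0 and 5.88 CPM. The step from Mrgprd neurons down to the fourth class was 3.14 (2.69 to 3.64) on the log2 scale in control and 2.87 (2.15 to 3.69) in the CFA library. C-LTMR neurons, where Piezo2 and Tmem63b were highest, held 7 Tmem63a UMIs in control and none in the CFA library, which allows up to 1.38 CPM. Outside neurons and oligodendrocyte-like cells, macrophages had 55.9 and 94.96 CPM and fibroblasts 55.6 and 62.2 CPM.

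Tmem63b was found in nearly every neuron with a class. Without thinning, a UMI was present in 100% of C-LTMR neurons in both libraries and in 90.9% to 100% of the cells of every other neuron class. The median depth of the neuron classes was 32275 to 78446 UMIs, and such shares move with depth. C-LTMR neurons had the highest level, 237 CPM (222 to 254, 889 UMIs) in control and 262 CPM (241 to 284, 568 UMIs) in the CFA library, above the A-fibre class by 0.93 (0.65 to 1.22) and 0.78 (0.40 to 1.18) on the log2 scale. The remaining 8 classes spanned 71.9 to 125 CPM in control and 76.7 to 153 CPM in the CFA library, and apart from Sstr2-negative peptidergic over Mrgprd neurons in the control, at 0.30 (0.15 to 0.45), the intervals of neighbours in the order held 0. Among glia, satellite glial cells had 73.5 and 102 CPM, myelinating Schwann cells 76.7 and 64.9 CPM, and oligodendrocyte-like cells 91.9 and 104 CPM. Fibroblasts had 22.1 and 17.5 CPM, endothelial cells 20.8 and 30.8 CPM, and macrophages 23.6 and 11.0 CPM.

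Tmem63c, whose protein is known from kidney podocytes and from hereditary disease of long motor axons, was almost confined to neurons in these counts. All 11 non-neuronal classes together held 11 UMIs in control and 0 in the CFA library, with limits for a class of 0 counts between 2.29 CPM in CFA myelinating Schwann cells and 115 CPM in CFA mural cells. The highest neuron classes were Sst/Nppb neurons with 41.5 and 36.5 CPM, Mrgprd neurons with 37.1 and 28.1 CPM, and Mrgpra3 neurons with 27.5 and 18.4 CPM. These 3 classes also led for Tmem63a. Mrgprd neurons alone held 401 of the control and 106 of the CFA UMIs, which was 49.8% and 47.5% of those in any class.

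Tmem150c was likewise a gene of neurons. Its highest level was in Mrgpra3 neurons, with 130.5 CPM (119 to 143, 465 UMIs in 45 cells) and 138 CPM (114 to 164.9, 120 UMIs in 13 cells), followed by Mrgprd neurons with 94.7 and 93.2 CPM. C-LTMR neurons had 82.2 and 78.8 CPM. Mrgpra3 neurons were above Mrgprd neurons by 0.46 (0.30 to 0.62) and 0.57 (0.25 to 0.87) on the log2 scale. The A-fibre class had 51.0 CPM (49 UMIs) and 22.2 CPM (9 UMIs), and Trpm8 neurons had 14.4 and 25.8 CPM. No non-neuronal class exceeded 11.6 CPM, which was 1 UMI in control T and NK cells. The small classes cannot show absence: mural cells held no UMI, which allows up to 115 CPM in the CFA library.

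The CFA and control libraries were then compared within each class, for genes with at least 50 UMIs in the class over both libraries. This gave 45 ratios of the 6 genes in 15 classes, of which 10 were past 1.5-fold, 6 higher and 4 lower in the CFA library. Over all genes that passed the same minimum, 12.9% of 101382 gene and class pairs were past this fold. Piezo2 was above its control level in 7 of the 8 neuron classes where it passed the minimum, and past the fold in 3 of them. Tmem63b was above it in 8 of 9 neuron classes, Tmem150c in 3 of 8, Tmem63c in 1 of 5 and Tmem63a in 1 of 4. The classes share the same 2 libraries, and such directions were not counted over all genes. In C-LTMR neurons, where 8.59% of genes were past 1.5-fold, the log2 ratio of Piezo2 was 0.43 (0.35 to 0.52), that of Tmem63b 0.14 (-0.013 to 0.29), that of Tmem150c -0.061 and that of Tmem63c -0.80 (-1.79 to 0.10, from 42 and 14 UMIs). In Mrgprd neurons, where the share of genes was 7.47%, none of 5 members was past the fold. Piezo2 was at 0.34 (0.24 to 0.44), Tmem63b at 0.33, Tmem63a at -0.40 (-0.67 to -0.14), Tmem63c at -0.40 (-0.72 to -0.086) and Tmem150c at -0.023 there.

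The peptidergic classes held the widest neuronal ratio of a member. In Sstr2-negative peptidergic C neurons, where 9.08% of genes were past 1.5-fold, Tmem63c had 119 UMIs (17.1 CPM) in control and 16 UMIs (5.04 CPM) in CFA cells. The log2 ratio was -1.76 (-2.61 to -1.001) at percentile 0.2801 of the genes of the class. The share of cells with a Tmem63c UMI was 46.6% and 18.0%, at median depths of 37965 and 32275 UMIs. In Sstr2-positive neurons, where the share of genes was 9.91%, the ratio of Tmem63c was 0.0083 (-0.62 to 0.62) and no member was past the fold. Piezo2 in Sstr2-negative neurons was higher by 0.90 (0.67 to 1.14), at percentile 99.3. The cells of this class with fewer than 10 Piezo2 UMIs held 183 UMIs in 168 control cells and 96 UMIs in 79 CFA cells. In Nefh-positive peptidergic neurons, where 18% of genes were past the fold and the CFA library had 8 cells, Piezo2 was higher by 0.97 (0.63 to 1.31) and Tmem63b by 0.51 (0.11 to 0.89). Cells with at least 10 Piezo2 UMIs made up 7 of 21 control cells of this class, with 146 of 169 UMIs, and 5 of 8 CFA cells, with 123 of 134 UMIs.

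In the A-fibre class, with 16.5% of genes past the fold, Piezo2 was higher by 0.67 (0.36 to 0.97) and Tmem150c was lower at -1.20 (-2.41 to -0.16). Cells with at least 10 Piezo2 UMIs made up 9 of 21 control cells of this class, with 168 of 222 UMIs, and 5 of 10 CFA cells, with 143 of 149 UMIs. The 21 control and 10 CFA cells of this class differed in other markers too. Ntrk3 was at 267 and 123 CPM, Ntrk2 at 87.4 and 131 CPM, and Fabp7, a marker of satellite glia, at 6.24 and 86.2 CPM. Ntrk3 is not particular to this class, with 222 and 260 CPM in C-LTMR neurons. The part of these differences in the ratios was not tested. In Trpm8 neurons, with 11.1% of genes past the fold, Tmem150c was at 0.84 (-0.022 to 1.68) from 30 and 22 UMIs. No member was past the fold in Mrgpra3 neurons, where 12.1% of genes were, or in Sst/Nppb neurons, where 13.1% were. Over all neurons, a sum that also moves with the number of cells of each class, 9.14% of genes and 1 of the 6 members were past the fold, with Tmem63c at -0.59 (-0.80 to -0.38) and Piezo2 at 0.52 (0.46 to 0.57).

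Outside neurons, past the fold were Piezo1 in endothelial cells at 0.91 (0.17 to 1.66), where 20.6% of genes were past it, Piezo2 in oligodendrocyte-like cells at 1.04 (0.21 to 1.95), where 16.6% were, and Piezo2 in non-myelinating Schwann cells at -0.91 (-2.05 to 0.075), where 26.3% were. Neither myelinating Schwann cells, with 16.3% of genes past the fold, nor satellite glial cells with 14.8%, nor fibroblasts with 18.7% had a member past it. Tmem63b in satellite glial cells was at 0.47 (0.084 to 0.85) and Tmem63a in oligodendrocyte-like cells at 0.20 (-0.0047 to 0.40).

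**Figure D4:**
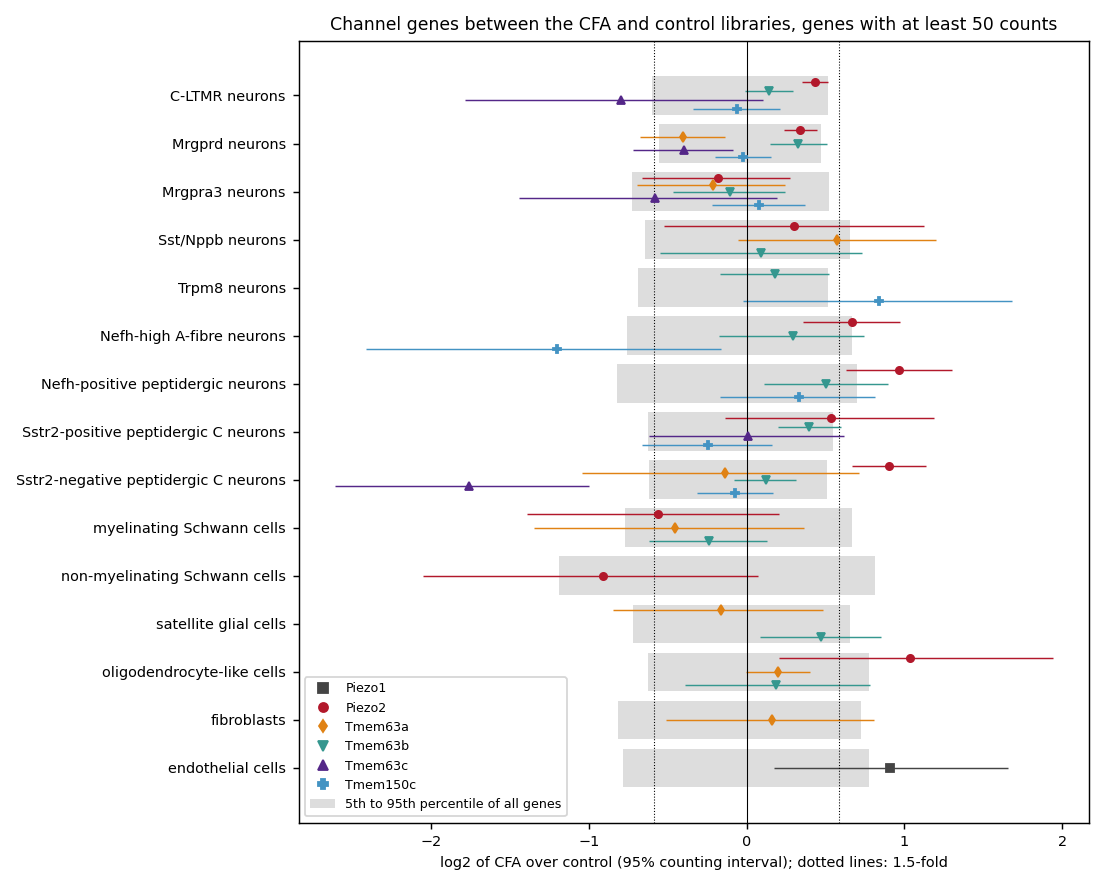
Log2 ratio of CFA over control (horizontal axis) for each of the 6 genes in the 15 classes where it had at least 50 UMIs, with 95% counting intervals, the 5th to 95th percentile of all genes of the class as grey bars and 1.5-fold as dotted lines. Tmem63c in Sstr2-negative peptidergic C neurons at -1.76 lies farthest from its grey bar. Piezo2 is to the right of 0 in 7 of 8 neuron classes and Tmem63b in 8 of 9.

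The genes whose order over the classes was most like that of a member were read from the Pearson r of log2(CPM + 1), taking the lower of the 2 libraries. The classes share their library, so these values describe the pattern and carry no test. For Piezo2, over 8 neuron classes and 8228 genes, they were Ankrd27 (r of 0.907 and 0.961), Spry2 (0.885 and 0.952), Ppp2r5c (0.884 and 0.885), Palmd and P2ry1, a gene of the C-LTMR gate. Spry2, an inhibitor of receptor tyrosine kinase signalling, had 132 and 138 CPM in C-LTMR neurons against 24.98 and 9.39 CPM in Trpm8 neurons. For Tmem63a, over 19 classes and 9734 genes, the first was Cers2 (0.688 and 0.692), a ceramide synthase of myelin lipids with 862 and 685 CPM in oligodendrocyte-like cells, followed by Magt1, Gng12, Tspan14 and Slc35b2. For Tmem63b the first was Nacc2 (0.945 and 0.873), for Tmem63c Dbndd1 (0.929 and 0.938) and for Tmem150c Tmem151b (0.915 and 0.959). Piezo1 was below the minimum of 200 UMIs in each library.

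Of 17 other genes of mechanical sensing, 14 passed the count minimum in at least 1 of the 15 classes, giving 100 ratios of which 3 were higher and 11 lower past 1.5-fold, against 12.9% of all gene and class pairs past it in either direction. The 3 higher ratios were those of Tmem120a in myelinating Schwann cells at 0.84 (0.30 to 1.37), Kcnk4, a potassium channel opened by stretch, in Trpm8 neurons at 0.68 (-0.19 to 1.52), and its relative Kcnk2 in fibroblasts at 0.61 (0.18 to 1.05). Stoml3, a stomatin-like protein that tunes PIEZO channels, had 5 UMIs in control and 3 in CFA neurons, and is named for that low count although neither fold nor level would have chosen it. Mdfic, a regulatory partner of PIEZO channels, was at 85.4 and 94.96 CPM in macrophages and at 0.365 and 0.539 CPM in neurons. Anxa6, a membrane-binding annexin, had its highest level among all classes in C-LTMR neurons, with 711 and 728 CPM. Tmem87a, a Golgi protein described with mechanically activated currents, was below its control level in all 10 classes where it passed the minimum and past the fold in 6 of them, with 1019 UMIs (26.6 CPM) in control and 300 UMIs (18.0 CPM) in CFA neurons. Asic3, an acid-sensing channel, was below its control level in all 4 classes where it passed the minimum, and past the fold in the A-fibre class at -1.52 (-2.20 to -0.90). Below the count minimum its ratios went both ways. In C-LTMR neurons it had 8 UMIs in control and 33 in CFA cells, a ratio of 2.83 (1.69 to 4.16). Trpm8 neurons had 28 and 4 UMIs, at -1.52 (-3.49 to -0.0037), and Sst/Nppb neurons 11 and 2 UMIs, at -2.27 (-5.48 to -0.071).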

How the data were processed

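The authors deposited raw UMI counts (whole numbers, 1 value for a gene in a cell) from the BD Rhapsody system for 1 control and 1 CFA library of dissociated right TGs; per the labels, reads were handled with fastp and GRCm38, while the counter, its annotation and strand setting are not given in the sources used here. Counts were found for 36541 and 32641 genes, and 37724 of 39098 symbols matched GENCODE M21. The limits for cells were 150 genes or more and 25% mitochondrial counts or less (48233077 and 21658155 UMIs). Neurons needed 50 UMIs and 0.75% of 10 pan-neuronal genes, and other cells less than 0.5%. The first neuron gates were Nppb 5, Mrgpra3 5, Mrgprd 10, Trpm8 5, and P2ry1 10 with Tafa4 5. Neurons past none of them were divided by Nefh 20, Calca 100 (below 50 for A-fibre neurons) and Sstr2 2 UMIs. The marker lists, the 6 members and the 17 other genes were chosen with earlier results of these data known, and the gate levels after viewing marker counts but not member counts. No doublets were called in the main values. A neuron past more than 1 of the first gates stayed in no class, as did another cell past more than 1 non-neuronal gate. A neuron past 1 of the first gates kept that class whatever its Nefh, Calca and Sstr2 counts.

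For each class in a library, the summed counts became CPM with exact Poisson intervals, ratios with conditional exact binomial intervals, and shares with Clopper-Pearson intervals, all at 95%. A count of 0 was bounded by 3 counts. Intervals cover counting error only. No test between conditions was possible with 1 library each. For shares of cells, neurons were thinned to 5000 and other cells to 500 UMIs. All 6 members were named in the classes that matter; of the 17 other genes, those past the fold or highest where a member is highest, except a result that is not reported here; and, for likeness, some or all of the 5 genes with the highest r among genes with at least 200 counts in both libraries, over classes with at least 10 cells in each. Alternatives were a stricter cell filter (300 genes, 10% mitochondrial), no mitochondrial limit, doubled gates, and equal weight for each cell. Others were totals without mitochondrial genes, Scrublet doublets removed, ratios centred on the median gene, a minimum of 100 counts, and other thinning depths. Leiden clusters were also used, named from the same markers, except that no name for peptidergic or A-fibre neurons was offered. The software was scanpy 1.11.5, scipy 1.17.1, numpy 2.4.6 and pandas 2.3.3 under Python 3.11.15, and the scripts were tested on simulated data.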

Additional observations from a re-analysis of the deposited data

Results flagged for a closer look

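Piezo2 and Tmem150c were past 1.5-fold in opposite directions in different classes, and the differences between the classes were not tested, since each class has 1 library per condition. Tmem150c was at a log2 ratio of 0.84 (-0.022 to 1.68) in Trpm8 neurons (30 and 22 UMIs), which fell short of the fold under 2 of 8 settings, and at -1.20 in Nefh-high A-fibre neurons (49 and 9 UMIs). Piezo2 was at 0.67 in Nefh-high A-fibre neurons, 0.97 in Nefh-positive peptidergic neurons, 0.90 in Sstr2-negative peptidergic C neurons and 1.04 in oligodendrocyte-like cells, and at -0.91 (-2.05 to 0.075) in non-myelinating Schwann cells (54 and 10 UMIs, with 18 control UMIs in 1 cell), which fell short of the fold under 4 of 8 settings.

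The barcodes that the cell filter left out, which entered no class, held Piezo2 at 325 CPM (222 UMIs) in control and 208 CPM (91 UMIs) in the CFA library. That was above the 171 CPM of all control neurons and below the 244 CPM of all CFA neurons. The pan-neuronal genes were at 2733 and 1847 CPM in these barcodes against 14647 and 14473 CPM in neurons. Other cells without a class held Piezo2 at 192.5 and 277 CPM, with up to 80 UMIs in a cell.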

How the results depend on the processing

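Of 591 levels recomputed under another setting, 576 stayed within the counting interval of the reported value, as did 338 of 339 ratios (Piezo2 in Mrgprd neurons was at 0.22 with every cell weighted equally), and no ratio past 1.5-fold changed sign. Piezo2 in CFA C-LTMR neurons moved to 1034 CPM with doubled gates and to 902.5 CPM with every cell weighted equally. Tmem63a in oligodendrocyte-like cells moved to 593 CPM in the control with classes from clustering and to 756 CPM in the CFA library with every cell weighted equally. Shares of cells moved with the depth they were read at. Without thinning they were 100% and 100% for Piezo2 in C-LTMR neurons, 10.9% and 20.1% for Piezo1 in endothelial cells and 84.1% and 85.85% for Tmem63a in oligodendrocyte-like cells. At 2000 UMIs the Piezo2 shares were 77.8% and 78.0%, and at 1000 UMIs the Tmem63a shares were 59.0% and 57.1%. Some ratios fell short of 1.5-fold: Piezo2 in A-fibre neurons (0.52) and Tmem63c in C-LTMR neurons (-0.50) with every cell weighted equally, Tmem150c in Trpm8 neurons (down to 0.33) with doubled gates or clusters, and Piezo2 in non-myelinating Schwann cells (up to -0.21) under 4 of 8 settings, where its control level ranged from 73.5 to 227 CPM. Piezo2 in Sstr2-positive neurons passed it with doubled gates (1.06). So did Piezo2 and Tmem63a in Sst/Nppb neurons (up to 0.63 and 0.66), Piezo2 in myelinating Schwann cells (to -0.65) and Tmem63b in satellite glial cells (to 0.66) under 1 to 3 settings. The ratios of Tmem150c in A-fibre neurons, of Piezo2 in Nefh-positive peptidergic neurons, of Tmem63c and Piezo2 in Sstr2-negative neurons, of Piezo1 in endothelial cells and of Piezo2 in oligodendrocyte-like cells stayed past it in every setting run. The cause was not tested. Only 6 of the 8 settings were run for the A-fibre and Nefh-positive peptidergic ratios named here, and 7 for the Sstr2-negative ratios. A setting was skipped where it left too few cells or no counts in a library. The share of genes past 1.5-fold was lower with at least 100 counts, at 4.97% in C-LTMR, 4.64% in Mrgprd, 7.91% in Mrgpra3, 8.25% in Sst/Nppb and 6.22% in Trpm8 neurons. Clusters matched the gate for 90.2% of gated cells. Neuron clusters could be named only as C-LTMR, Mrgprd, Mrgpra3, Sst/Nppb or Trpm8 neurons. Gated peptidergic and A-fibre neurons therefore could not match, count as unmatched in that share, and have no value under this setting. No paired analysis was possible because each condition has 1 library, so no library could be left out either.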
